A study of Drosophila melanogaster with 24 samples.

Results

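The cytosolic ribosomal protein genes of Drosophila melanogaster were followed across neurons collected from the adult brain. They were chosen by symbol alone, as Rp, then L or S, then a digit or the letter P with a digit, among probe sets to which the platform annotation gives exactly 1 gene. The rule found 41 of the 11982 genes with such a probe set, and where a gene had several, the brightest on average across the 24 arrays was used. Ribosomal protein genes whose symbols or probe sets fall outside this rule are not analysed here.

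The arrays fall into 10 groups. Large PDF neurons, clock cells that release the neuropeptide PDF, came from males of the per01 background at zeitgeber time (ZT) 12 and ZT0, with 2 arrays at each time. Small PDF neurons of the yw background were sampled at ZT12 and ZT0, again with 2 arrays each. Large PDF neurons of the yw background, called wild type here, have 3 arrays at ZT0, 2 at ZT6, 3 at ZT12 and 2 at ZT18. ELAV neurons, taken without choice of neuron type, came from the yw background at ZT12 and ZT0, with 3 arrays each. All groups but per01 pooled male and female flies. ZT counts hours from lights on in a cycle of 12 h light and 12 h dark. PDF cells carried pdf-GFP and the general neurons ELAV-GFP. Each sample pooled about 50 brains, and the replicates are labelled biological. per01 is a loss-of-function allele of the clock gene period.

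Ribosomal proteins join ribosomal RNA to form the small and the large subunit of the ribosome, and the acidic proteins RpLP1 and RpLP2 sit on RpLP0 to form the stalk that recruits translation factors. In the fly most of these genes occur as a single functional copy, and loss of a copy gives the Minute phenotype of slow development and short bristles. Neurons need ribosomes in the cell body and also carry them into dendrites and axons, and PDF neurons make and release large amounts of peptide. A few genes of the family have paralogues known from the germ line, such as RpS5b, RpS10a, RpS19b and RpL22-like, and the products of RpL24-like, RpL7-like and RpLP0-like are relatives of yeast factors that assemble the large subunit.

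Values are log2 GCRMA signals, which are relative within each array and do not measure the ribosomal RNA or protein of a cell. In such bulk samples, fewer cells of a type and less RNA per cell cannot be told apart. The neuropeptide gene Pdf checked the labels of PDF against ELAV arrays only, not those of size, genotype or time. It had 16.17 to 16.20 on per01 arrays, 15.77 to 15.87 on small PDF arrays and 15.50 to 15.99 on large PDF arrays, against 2.76 to 5.34 on ELAV arrays. The median of the 4 neuronal markers in the annotation was between 9.90 and 11.35 on all 24 arrays. The median over all probe sets was 2.57 to 2.60 on per01 arrays and 3.14 to 3.44 on the other 20, so the per01 arrays have a value distribution of their own. One library stood apart: ZT12 replicate 2 of wild-type large PDF neurons had the lowest value of the 10 large PDF arrays for 21 of the 34 measured members, and results that rest on it are given with and without it.

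Of the 41 members, 34 reached log2 5 on at least 2 arrays and were tested among 8318 such probe sets. Their means over all arrays were between 5.64 (RpS5b) and 14.84 (RpL41), with a median of 13.04. The 7 others were RpL10Aa, RpL22-like, RpL37-2, RpS10a, RpS19b, RpS28-like and RpS28a. All their values lay between 2.23 and 4.94 with a median of 2.66, so they were at background on every array. Of the 34 tested, 29 had means between 12.27 and 14.84, and the 5 below were RpS5b, RpLP0-like, RpL7-like, RpL34a and RpL24-like. These levels belong to separate probe sets and set no gene's abundance against another's. Among members with the annotated partner in hand, RpS28b was at 13.93 to 14.14 on per01 arrays, 14.69 to 14.89 on small PDF arrays, 13.55 to 15.07 on large PDF arrays and 14.53 to 14.83 on ELAV arrays, while neither RpS28a nor RpS28-like reached log2 5 on any array. RpL10Ab, whose protein is the one tagged in fly ribosome affinity purification, spanned 13.57 to 13.88 on per01 arrays, 13.66 to 13.90 on small PDF arrays, 13.62 to 14.57 on large PDF arrays and 13.41 to 13.82 on ELAV arrays. Its partner RpL10Aa had a highest value of 4.56.

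The median over the 34 members was 12.55 to 13.12 on the 4 per01 arrays, 13.09 to 13.40 on the 4 small PDF arrays, 12.56 to 13.71 on the 10 large PDF arrays and 12.58 to 13.03 on the 6 ELAV arrays. Every small PDF array and 9 of the 10 large PDF arrays lay above all ELAV arrays by this measure. The exception was ZT12 replicate 2 of large PDF neurons, at 12.56. The low and the high rows are spread over both subunits in the heat map of members by array.

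**Figure D1:**
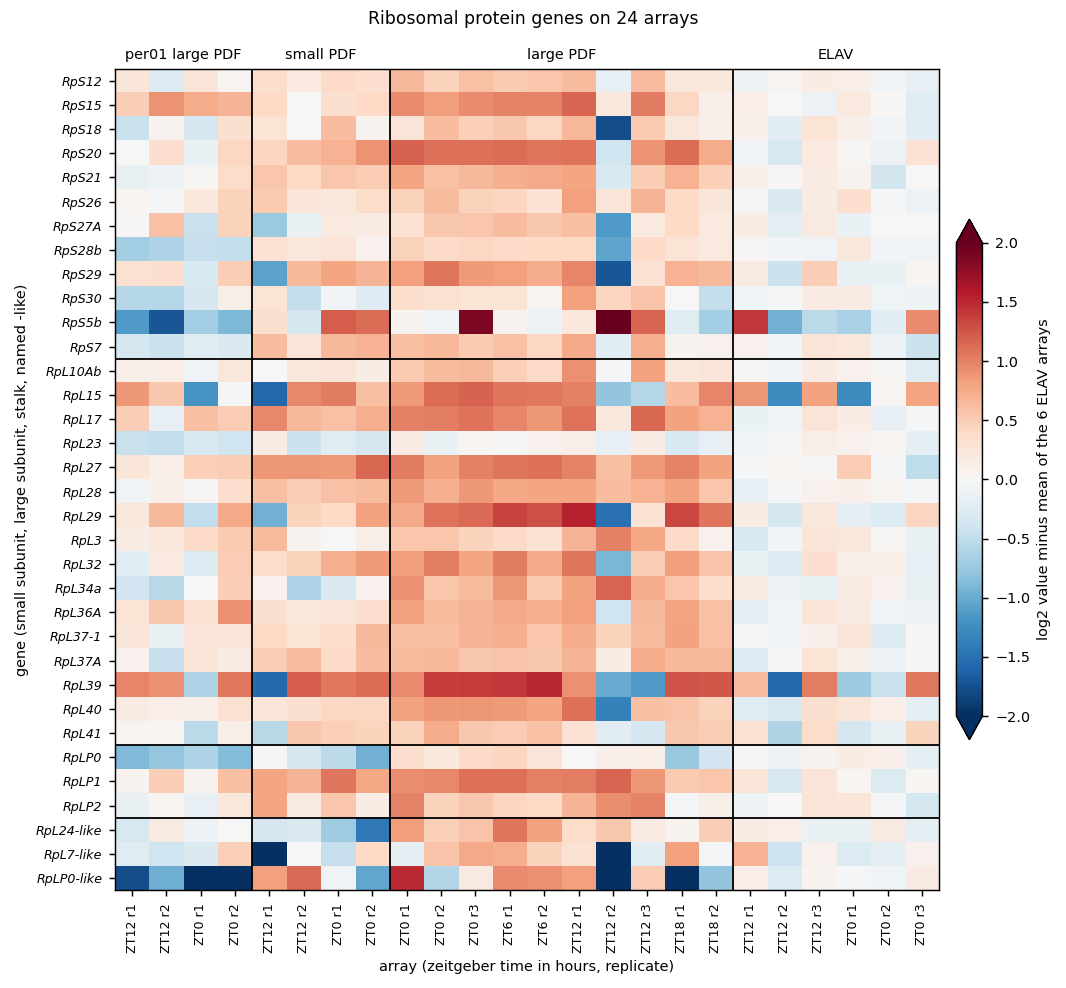
Log2 value of each of the 34 measured ribosomal protein genes (rows, grouped as small subunit, large subunit, stalk and genes named -like) on each of the 24 arrays (columns), minus that gene's mean over the 6 ELAV arrays; colours end at 2 in either direction. Most rows are red across large PDF arrays except ZT12 replicate 2, paler across small PDF arrays, and RpLP0 and RpS28b are blue on all per01 arrays.

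Wild-type large PDF neurons had higher signals than ELAV neurons for 13 of the 34 ribosomal protein genes and lower signals for 0, by limma with Benjamini-Hochberg adjustment and ZT0 and ZT12 weighted equally. Across all probe sets tested 11.9% were called higher and 12.5% lower. The median difference of the members was 0.52, against -0.01 over all probe sets tested, and 33 of the 34 differences were positive. Members mostly sit at the top of the signal range, and of the 304 probe sets with a mean of at least log2 12, 29 of them members, 26.6% were called higher and 9.54% lower, with a median of 0.23. At an unadjusted p below 0.05 by limma, 19 members were higher and 0 lower. Of all 8318 probe sets 3034 passed that threshold in either direction, and of the 304 with high signals 153. No alternative setting called any member lower.

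The stalk gene RpLP1 (probe set 1623606_at) had 14.09, 14.22 and 13.93 at ZT12 and 13.99, 14.03 and 14.17 at ZT0 in large PDF neurons. In ELAV neurons it had 13.31, 12.74 and 13.32 at ZT12 and 13.11, 12.79 and 13.11 at ZT0. No large PDF array of these times overlapped an ELAV array, and the difference was 1.01 ± 0.18 (SE, limma adjusted p = 0.000457), or 2.01-fold. Its partner RpLP2 was higher by 0.76 ± 0.19 (limma adjusted p = 0.00689) and did not overlap at ZT0 and ZT12 either. RpLP2 stood at 13.40, 13.65 and 13.72 at ZT12 and 13.72, 13.19 and 13.26 at ZT0 in large PDF neurons, against 12.62, 12.74 and 12.98 at ZT12 and 12.97, 12.68 and 12.37 at ZT0 in ELAV neurons. The ZT18 arrays of large PDF neurons, at 12.68 and 12.85, lay within that ELAV range. RpLP0, the base of the stalk, differed by only 0.19 ± 0.17 (limma adjusted p = 0.433), with 12.99, 13.08 and 13.11 at ZT12 and 13.32, 13.20 and 13.36 at ZT0 in large PDF neurons, against 12.94, 12.89 and 13.05 at ZT12 and 13.14, 13.09 and 12.80 at ZT0 in ELAV neurons.

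Of 16 measured large subunit genes outside the stalk and the -like genes, 8 were higher, with a median difference of 0.56. Across all probe sets tested 11.9% were called higher, and 26.6% of the 304 with high signals. RpL17, whose protein lines the tunnel through which the new chain leaves, had 13.31, 12.43 and 13.37 at ZT12 and 13.22, 13.24 and 13.31 at ZT0 in large PDF neurons, against 12.08, 12.14 and 12.47 at ZT12 and 12.37, 12.06 and 12.19 at ZT0 in ELAV neurons. Only ZT12 replicate 2 of large PDF neurons fell within the ELAV range, and RpL17 was higher by 0.93 ± 0.20 (limma adjusted p = 0.0021). RpL27, another large subunit protein gene, had 12.84, 12.45 and 12.70 at ZT12 and 12.90, 12.66 and 12.86 at ZT0 in large PDF neurons, against 11.82, 11.90 and 11.88 at ZT12 and 12.36, 11.82 and 11.35 at ZT0 in ELAV neurons. The groups did not overlap at these times, and RpL27 was higher by 0.88 ± 0.18 (limma adjusted p = 0.00167). RpL28, which had the smallest spread between replicates of the 34 measured members, was higher by 0.76 ± 0.15. RpL3, whose protein reaches toward the peptidyl transferase centre, was higher by 0.67 ± 0.17, and RpL34a by 0.80 ± 0.19. RpL37-1 (0.62), RpL10Ab (0.58) and RpL37A (0.57), which encodes a protein distinct from that of RpL37-1, complete the 8. RpL23 was level with ELAV neurons at 0.03 ± 0.17 (limma adjusted p = 0.912), and RpL32, the gene also called rp49 and used as a reference in many fly PCR assays, stood at 0.55 ± 0.27 (limma adjusted p = 0.153). RpL32 was called higher, by 0.84 ± 0.21 (limma adjusted p = 0.00665), without ZT12 replicate 2 of large PDF neurons.

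Among 12 small subunit genes 3 were higher, with a median difference of 0.48 over the 12. Of all probe sets tested 11.9% were called higher, and of the 304 with high signals 26.6%. The share of the 12 is close to the latter. RpS15 (0.86 ± 0.19) and RpS20 (0.83 ± 0.24), both of the head of the small subunit, and RpS26 (0.55 ± 0.18) were called. RpS28b (0.17 ± 0.22), RpS27A (0.17 ± 0.26) and RpS18 (0.13 ± 0.33) had the smallest differences, and they stood at 0.41, 0.43 and 0.52 without ZT12 replicate 2 of large PDF neurons. Neither RpS27A nor RpL40, the members made as fusions with ubiquitin, was called, with RpL40 at 0.48 ± 0.30. Without that library RpL40 was called, at 0.84 ± 0.18 (limma adjusted p = 0.00222). None of the 3 -like genes was called: RpL24-like stood at 0.50 ± 0.19 (limma adjusted p = 0.0626), RpLP0-like at 0.01 ± 0.46 and RpL7-like at -0.29 ± 0.48. They stood at 0.45, 0.51 and 0.22 without ZT12 replicate 2 of large PDF neurons and were again not called.

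Every large PDF array of ZT0 and ZT12 lay above every ELAV array for 10 of 34 members (5.21% of all probe sets tested) and below for 0 (5.99%). The 10 were RpL24-like, RpL27, RpL28, RpL3, RpL34a, RpL37-1, RpLP1, RpLP2, RpS15 and RpS30. For RpL24-like the lowest of these large PDF values and the highest ELAV value both read 10.76 as rounded. A ZT18 array of large PDF neurons had 10.66 for it, within the ELAV range. Without ZT12 replicate 2 of large PDF neurons 20 members were called higher (12.9% of all probe sets) and 0 lower, and the median was 0.66. The calls of RpL10Ab and RpS26 were each lost in 7 of 12 fits without 1 array, and that of RpL37A in 5. The summed signal of 5 haemocyte genes was 11.03 to 11.60 (log2) on large PDF arrays and 9.62 to 10.59 on ELAV arrays. Most of that sum was Pxn, at 10.85 to 11.45 on large PDF arrays and 9.08 to 10.36 on ELAV arrays. The values of crq overlapped, at 5.95 to 8.17 and 7.48 to 7.84. The defining markers NimC1 and He stayed under log2 5 on all of these arrays, and Hml did on the ELAV arrays only. Summed signals of 8 glial genes overlapped, at 7.74 to 10.47 on large PDF arrays and 7.74 to 9.25 on ELAV arrays, with alrm, Gat and wrapper under log2 5 on all. The part of either cell type in the result was not tested.

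**Figure D2:**
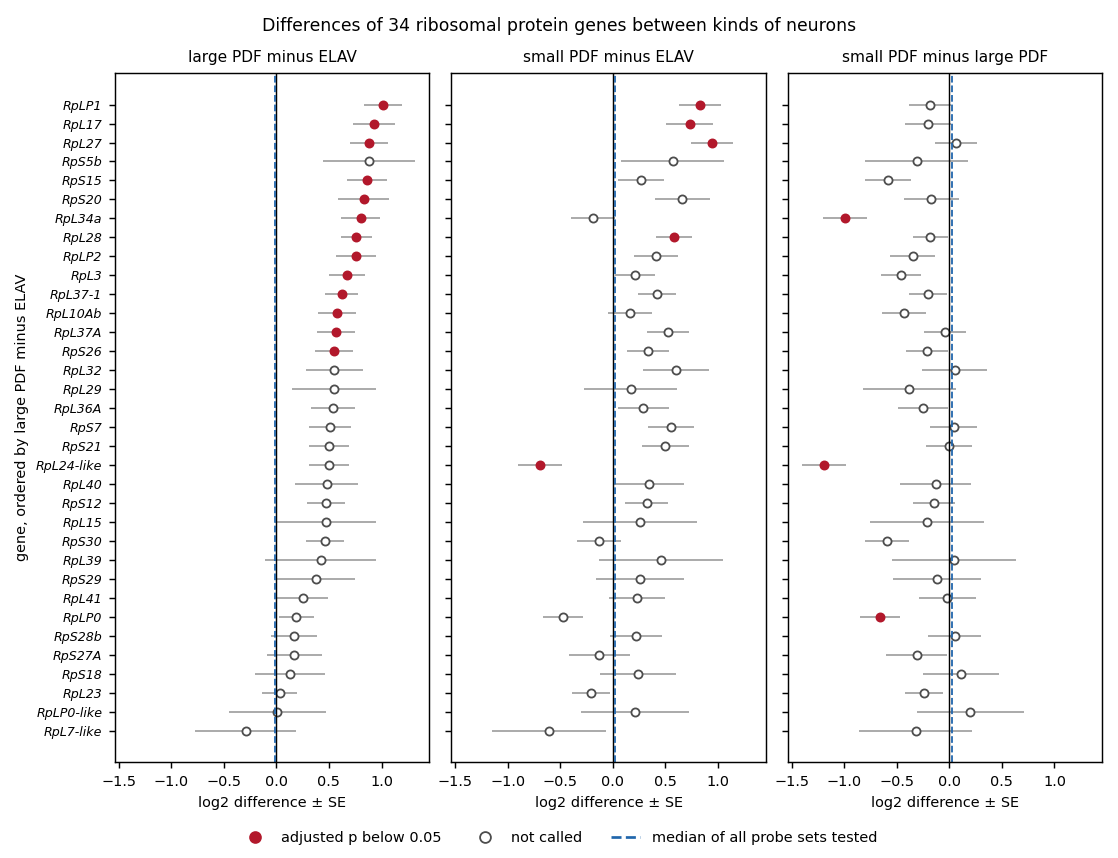
Log2 difference ± SE of the 34 members for large PDF minus ELAV, small PDF minus ELAV and small minus large PDF neurons; filled points passed an adjusted p below 0.05 and the dashed line is the median of all probe sets tested. In the left panel 33 points lie right of 0, while in the right panel RpL24-like, RpL34a and RpLP0 lie far left.

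Small PDF neurons had higher signals than ELAV neurons for 4 members and a lower signal for 1, where 13.6% of all probe sets tested were called higher and 14.0% lower. Of the 304 with high signals 15.1% were called higher and 15.1% lower. The share of members called higher, 4 of 34, is close to that background. The median difference was 0.28, against 0.02 over all probe sets tested, and 27 differences were positive. RpL27 had 12.72 and 12.74 at ZT12 and 12.70 and 13.00 at ZT0 in small PDF neurons, all above the ELAV values, and was higher by 0.94 ± 0.20 (limma adjusted p = 0.00224). RpLP1, with 13.85 and 13.75 at ZT12 and 14.13 and 13.83 at ZT0 in small PDF neurons, was also clear of the ELAV arrays and higher by 0.83 ± 0.20 (limma adjusted p = 0.00483). RpL17 had 13.18 and 12.86 at ZT12 and 12.81 and 12.95 at ZT0, and was higher by 0.73 ± 0.22 (limma adjusted p = 0.0198). RpL28 was the fourth, higher by 0.58 ± 0.17. This comparison and the one before share the ELAV arrays, so their values are not independent.

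The lower gene was RpL24-like, the relative of an assembly factor. It had 10.26 and 10.31 at ZT12 and 9.89 and 9.17 at ZT0 in small PDF neurons, against 10.74, 10.73 and 10.47 at ZT12 and 10.46, 10.76 and 10.42 at ZT0 in ELAV neurons. All small PDF arrays lay below all ELAV arrays, by -0.69 ± 0.21 (limma adjusted p = 0.0197). Its call, and those of RpL17 and RpL28, were lost without ZT12 replicate 1 or ZT0 replicate 2 of small PDF neurons, which left 2 members called. No small subunit gene was called by limma (0 of 12, and 3 at an unadjusted p below 0.05), although 10 of the 12 differences were positive. Of all 8318 probe sets 3148 had an unadjusted p below 0.05 by limma. In the stalk RpLP2 stood at 0.41 ± 0.21 and RpLP0 at -0.47 ± 0.19 (limma adjusted p = 0.0694). RpLP0 had 12.96 and 12.63 at ZT12 and 12.46 and 12.02 at ZT0 in small PDF neurons. Every small PDF array was above every ELAV array for 11 members (9.77% of all probe sets) and below for 1 (9.50%).

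Small and large PDF neurons differed for few of these genes: 0 were higher and 3 lower in small PDF neurons, with 9.14% and 7.97% of all probe sets tested called in those directions. The share of members called lower is close to that background. The median difference was -0.20, against 0.03 over all probe sets tested and -0.17 over the 304 with high signals, of which 5.26% were called higher and 14.8% lower. At an unadjusted p below 0.05 limma gave 0 members higher and 6 lower. Of all 8318 probe sets 2600 passed that threshold in either direction, and of the 304 with high signals 103. RpL24-like (probe set 1633283_at) differed most, at 10.26 and 10.31 at ZT12 and 9.89 and 9.17 at ZT0 in small PDF neurons, against 10.96, 11.14 and 10.76 at ZT12 and 11.44, 11.08 and 11.17 at ZT0 in large PDF neurons. It was lower by -1.19 ± 0.21 (limma adjusted p = 0.000752), a ratio of 0.439, with no overlap at these times. RpL34a had 10.16 and 9.45 at ZT12 and 9.79 and 10.15 at ZT0 in small PDF neurons, against 10.88, 11.24 and 10.81 at ZT12 and 10.99, 10.63 and 10.70 at ZT0 in large PDF neurons. It was lower by -0.99 ± 0.21 (limma adjusted p = 0.0038), again with no overlap.

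RpLP0 was lower in small PDF neurons by -0.66 ± 0.19 (limma adjusted p = 0.0201), and its values, given above, did not overlap between the kinds at ZT0 and ZT12. The gap was narrow, with the highest small PDF value, 12.96, just under the lowest large PDF value of those times. The ZT18 arrays of large PDF neurons, with a mean of 12.42, lay within the small PDF range of 12.02 to 12.96. The call was lost without ZT12 replicate 2 or without ZT0 replicate 2 of small PDF neurons. RpLP1 (-0.18 ± 0.20) and RpLP2 (-0.35 ± 0.21) had the same sign and were not called. Every small PDF array was below each of the 6 large PDF arrays of ZT0 and ZT12 for RpL24-like, RpL34a, RpLP0 and RpS30, 4 of 34 members, where 4.36% of all probe sets behaved so, and above for 0 (5.21%). Without ZT12 replicate 2 of large PDF neurons, 6 members were called lower (9.49% of all probe sets), and RpS15 (-0.73 ± 0.19), RpS30 (-0.63 ± 0.21) and RpL10Ab (-0.57 ± 0.17) were the added genes. The summed haemocyte signal was 7.66 to 10.28 (log2) on small PDF arrays and 11.03 to 11.60 on large PDF arrays. Pxn alone had 5.89 to 9.94 and 10.85 to 11.45, while crq overlapped, at 6.92 to 7.94 and 5.95 to 8.17. The part of blood cells in these differences was not tested. The members' values in each kind are set side by side in the plot of genes that differed between kinds.

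**Figure D3:**
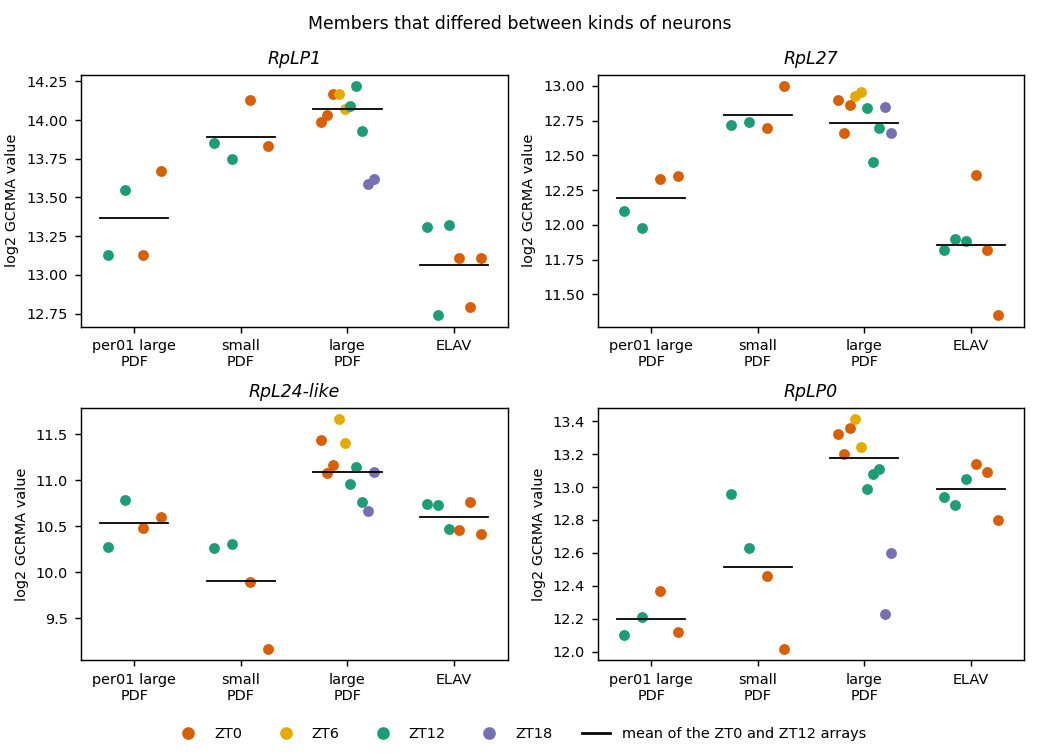
Log2 values of RpLP1, RpL27, RpL24-like and RpLP0 on every array by kind of neuron, coloured by time; the line is the mean of the ZT0 and ZT12 arrays, and each panel has its own axis range. RpLP1 and RpL27 are above all ELAV arrays in both wild-type PDF kinds, while RpL24-like and RpLP0 are lower in small than in large PDF neurons at ZT0 and ZT12.

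Large PDF neurons of per01 flies had lower deposited values than wild-type large PDF neurons for 13 members and higher ones for 0, but most probe sets were lower there. Of all probe sets tested 31.0% were called lower and 0.926% higher, and the median difference was -0.69, against which the members' median was -0.48. Among the 304 with high signals 28.3% were lower and 0.658% higher. After all arrays were given a common distribution (requantiled), 0 members were called by limma, 2 had an unadjusted p below 0.05, and the members' median was -0.09. Of all probe sets 3.94% were then lower and 3.11% higher. After each array was centred on its median, 0 members were called, 3 had an unadjusted p below 0.05, the median was 0.17, and 5.59% of all probe sets were lower and 3.05% higher. The per01 flies were male and the wild-type flies of both sexes, so genotype, sex and the array distribution cannot be told apart. Summed glial signals were 6.82 to 7.09 (log2) on per01 arrays and 7.74 to 10.47 on wild-type large PDF arrays, and their part was not tested.

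With that limit, the stalk was lower as a whole in the deposited values. RpLP0 had 12.10 and 12.21 at ZT12 and 12.37 and 12.12 at ZT0 in per01 flies, below all 6 wild-type arrays of those times, and differed by -0.98 ± 0.19 (limma adjusted p = 0.00103). The requantiled difference was -0.59 ± 0.18 (limma adjusted p = 0.0567), and centring gave -0.33 ± 0.20. RpLP1 (-0.70 ± 0.20), with 13.13 and 13.55 at ZT12 and 13.13 and 13.67 at ZT0, and RpLP2 (-0.77 ± 0.21), with 12.58 and 12.76 at ZT12 and 12.56 and 12.96 at ZT0, were called in the deposited values and lay at -0.29 and -0.41 after requantiling and at -0.05 and -0.13 after centring. RpLP0-like had 4.68 and 5.47 at ZT12 and 3.37 and 3.78 at ZT0 in per01 flies, against 7.27, 4.10 and 6.96 at ZT12 and 7.95, 5.87 and 6.63 at ZT0 in the wild type. Its difference was -2.14 ± 0.51 (limma adjusted p = 0.00514), -0.97 ± 0.52 after requantiling and -1.49 ± 0.53 after centring. It reached log2 5 on 1 of the 4 per01 arrays, so the size of this difference rests largely on values at background. RpS5b, with 4.41 and 3.83 at ZT12 and 4.87 and 4.65 at ZT0, was under log2 5 on every per01 array. It had 5.76, 7.56 and 6.71 at ZT12 and 5.61, 5.49 and 7.43 at ZT0 in the wild type. Its deposited difference was -1.99 ± 0.49 (limma adjusted p = 0.00598). With values under 5 raised to 5, RpS5b was 2.69-fold lower as deposited. That figure was 2.3-fold to 3.06-fold without 1 wild-type array, and it was not tested. Requantiled, RpS5b differed by -0.87 ± 0.53, and centred by -1.34 ± 0.48.

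The other members called in the deposited values were RpL34a (-0.91), RpS7 (-0.84), RpS30 (-0.80), RpS28b (-0.73), RpL28 (-0.66), RpL24-like (-0.56), RpL37A (-0.56) and RpL27 (-0.55). After centring, RpL24-like, RpL37A and RpL27 changed sign, to 0.08, 0.09 and 0.10. RpS15 (-0.16 ± 0.22), RpL36A (-0.03 ± 0.24) and RpS27A (-0.02 ± 0.29) stood close to the wild type as deposited and at 0.22, 0.40 and 0.38 after requantiling. Every per01 array was below each of the 6 wild-type arrays of ZT0 and ZT12 for 11 of 34 members, where 24.4% of all probe sets were. Without ZT12 replicate 2 of wild-type large PDF neurons 22 members were called lower (32.7% of all probe sets). Without ZT0 replicate 1 of per01 neurons, which leaves 1 array in that group, the members' median was -0.45.

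Between ZT12 and ZT0 no ribosomal protein gene was called in any kind of neuron. By limma 0 of 34 passed in per01 large PDF neurons (0.0120% of all probe sets tested called either way), 0 in small PDF neurons (3.39%), 0 in wild-type large PDF neurons (2.19%) and 0 in ELAV neurons (0.0240%). At an unadjusted p below 0.05 limma gave 1, 1, 1 and 0 members in that order. Of all 8318 probe sets 301, 1098, 1422 and 339 passed that threshold. The members' median differences were -0.13, -0.12, -0.23 and 0.02. That of wild-type large PDF neurons was 0.01, with 17 of 34 differences positive, without ZT12 replicate 2, against 8 positive with it. In small PDF neurons the member with p below 0.05 was RpL24-like, at 0.75 ± 0.33 (limma adjusted p = 0.305). In per01 neurons it was RpL34a, at -0.72 ± 0.33 (limma adjusted p = 1). In wild-type large PDF neurons it was RpL39, whose protein lies in the exit tunnel, at -1.66 ± 0.75 (limma adjusted p = 0.266). Without ZT12 replicate 2 the RpL39 difference was -1.35 ± 0.84. In ELAV neurons all 34 differences lay between -0.13 and 0.28.

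The 4 times in wild-type large PDF neurons gave 0 called members by limma's F test (2.02% of all probe sets called) and 2 at an unadjusted p below 0.05. RpLP0 had 13.32, 13.20 and 13.36 at ZT0, 13.41 and 13.24 at ZT6, 12.99, 13.08 and 13.11 at ZT12 and 12.23 and 12.60 at ZT18. Both ZT18 arrays lay below the other 8, and the F test gave an adjusted p of 0.176 by limma. RpLP0-like had 7.95, 5.87 and 6.63 at ZT0, 7.40 and 7.37 at ZT6, 7.27, 4.10 and 6.96 at ZT12 and 4.44 and 5.66 at ZT18 (limma adjusted p = 0.275). Its 4.10 is ZT12 replicate 2, and without that array the F test gave RpLP0-like an adjusted p of 0.0861 by limma. RpS15 then had an unadjusted p of 0.0343 by limma (adjusted p = 0.271), and 0 members were called. Between ZT18 and ZT6 alone, 0 members were called (0.397% of all probe sets). By limma 3 members had an unadjusted p below 0.05, as did 741 of all 8318 probe sets. The 3 were RpLP0 at -0.91 ± 0.29 (limma adjusted p = 0.271), RpLP0-like at -2.33 ± 0.80 and RpS15 at -0.73 ± 0.34. With no filter, or with a variance trend and robust moderation, 1 member was called over the 4 times and 1 between ZT18 and ZT6. Of all probe sets 334 and 277 were then called over the 4 times, and 93 and 57 between ZT18 and ZT6.

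**Figure D4:**
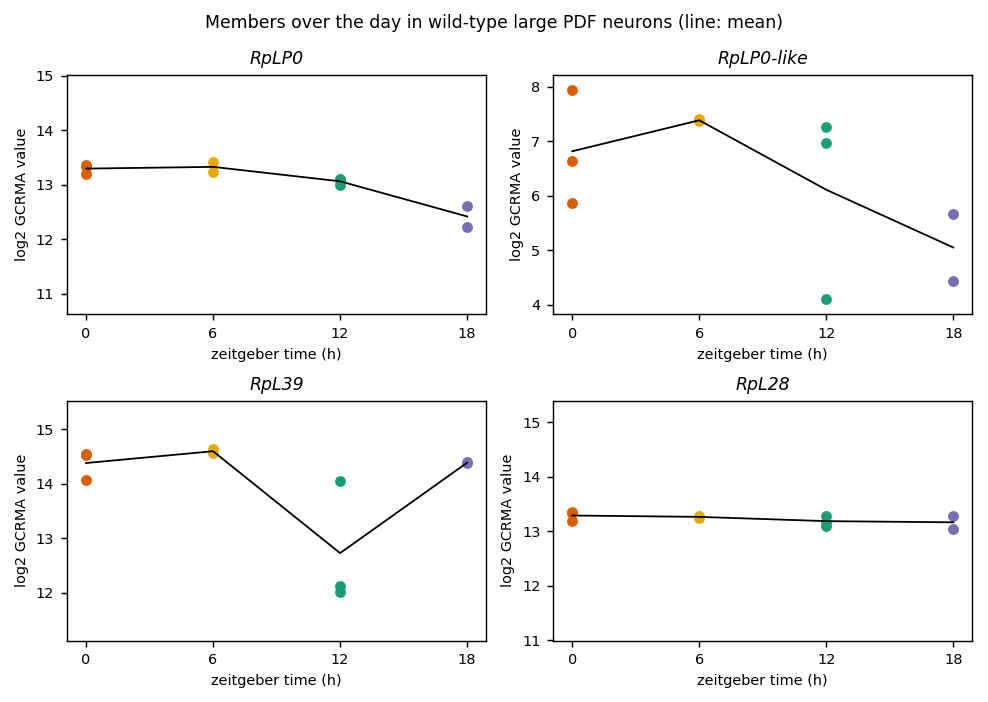
Log2 values of RpLP0, RpLP0-like, RpL39 and RpL28 in wild-type large PDF neurons against zeitgeber time in hours; points are arrays, lines join the means, and all panels span the same range of log2 units. RpLP0 is lowest on both ZT18 arrays, 2 of the 3 ZT12 arrays are low for RpL39, and RpL28 stays between 13.04 and 13.35.

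The change from ZT0 to ZT12 was also compared between kinds. Limma called 0 members for per01 against wild-type large PDF neurons (0.144% of all probe sets), 0 for small against large PDF neurons (0.697%), 0 for large PDF against ELAV neurons (0.0962%) and 0 for small PDF against ELAV neurons (1.13%). At an unadjusted p below 0.05 limma gave 3, 3, 0 and 0 members, and 707, 904, 888 and 856 of all 8318 probe sets. RpL24-like and RpLP0 were among the 3 members for small against large PDF neurons. Their differences between the time changes were 1.03 ± 0.42 (limma adjusted p = 0.358) and 0.79 ± 0.37 (limma adjusted p = 0.455).

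Members differed in how well replicates repeated. The SD within groups was between 0.11 (RpL28) and 0.99 (RpL39) with a median of 0.26, against 0.64 over all probe sets tested and 0.25 over the 304 with high signals. For 7 members the SD was above 0.64: RpL39, RpL15, RpL7-like, RpLP0-like, RpS5b, RpL29 and RpS29. RpLP0-like, RpS5b and RpL7-like have the lowest signals, but RpL39, RpL15, RpL29 and RpS29 have means above 13. RpL39 (probe set 1626964_at) had 14.11 and 14.06 at ZT12 and 12.53 and 14.19 at ZT0 in per01 neurons, 11.59 and 14.35 at ZT12 and 14.19 and 14.26 at ZT0 in small PDF neurons. In wild-type large PDF neurons it had 14.08, 14.53 and 14.54 at ZT0, 14.56 and 14.64 at ZT6, 14.05, 12.13 and 12.01 at ZT12 and 14.40 and 14.38 at ZT18. In ELAV neurons it had 13.76, 11.59 and 14.17 at ZT12 and 12.42, 12.70 and 14.20 at ZT0. Low values thus occurred in all 4 kinds, beside replicates of the same group with values above 14.

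RpL41, which encodes one of the smallest proteins of the ribosome, and RpL15 were low on many of the same arrays. In small PDF neurons at ZT12 RpL41 had 14.11 and 15.21, RpL15 11.87 and 14.41, and RpS29 11.67 and 13.40. In wild-type large PDF neurons at ZT12 RpL41 had 14.95, 14.44 and 14.34, RpL15 14.45, 12.66 and 12.88, and RpS29 13.72, 11.03 and 13.04. RpL28 had 13.09 and 12.98 on the same small PDF arrays and 13.28, 13.10 and 13.18 on the same large PDF arrays. RpL39 and RpL41 placed the arrays in the same order in 16 of 18 pairs of replicates, where the median over 561 pairs of members was 10 and the highest 17. RpL15 did so in 13 of 18 with RpL39 and in 13 with RpL41. A second probe set for RpS29, with lower signals (8.35 to 11.11), gave 0.70 for large PDF against ELAV neurons (limma adjusted p = 0.206), where the one used gave 0.38 ± 0.37. These genes were picked after their values were seen, and the ZT12 differences of RpL39 and RpL15 in wild-type large PDF neurons rest on 2 of the 3 ZT12 arrays.

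**Figure D5:**
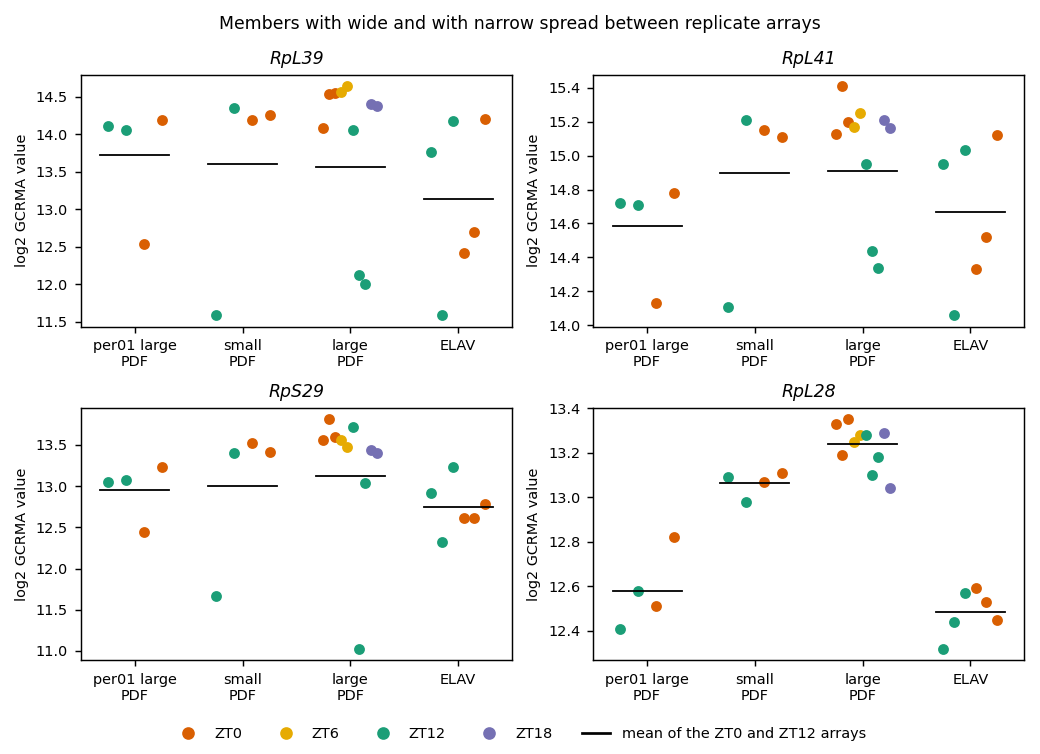
Log2 values of RpL39, RpL41, RpS29 and RpL28 on every array by kind of neuron, coloured by time; the line is the mean of the ZT0 and ZT12 arrays, and each panel has its own axis range. RpL39 and RpL41 each have arrays well below replicates of their own group in all 4 kinds, while RpL28 spans 12.32 to 13.35 in all.

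Other genes of translation were read beside the members. Rack1, a scaffold protein bound to the small subunit, was higher in large PDF than in ELAV neurons by 0.79 ± 0.21 (limma adjusted p = 0.00899). Of 23 initiation factor genes 6 were higher and 1 lower in that comparison, with a median of 0.34, and of 6 elongation and release genes 3 were higher and 0 lower, with a median of 0.62, where 11.9% of all probe sets were higher and 12.5% lower. The higher ones included subunits of eIF3, the complex that prepares the small subunit for messenger RNA: eIF3c (1.41 ± 0.21), eIF3h (0.99 ± 0.27), eIF3f1 (0.87 ± 0.21) and eIF3l (0.81 ± 0.20). The elongation factor gene eEF1gamma (1.20 ± 0.23), Tctp (1.17 ± 0.16) and the release factor gene eRF3 (1.47 ± 0.29) were the 3. In small PDF against ELAV neurons 3 initiation genes were higher and 1 lower with a median of -0.06. Of all probe sets 13.6% were higher and 14.0% lower in that comparison, so these counts are not above background. There eRF3 was higher by 3.07 ± 0.32 (limma adjusted p = 1.18e-06). In small against large PDF neurons eIF3l (-1.19 ± 0.22), eIF3f1 (-0.96 ± 0.24) and eIF3m (-0.94 ± 0.25) were among 4 lower initiation genes. The gene eIF6, which keeps the subunits apart, was 1 of 2 higher (1.24 ± 0.36). Of all probe sets 9.14% were higher and 7.97% lower in small against large PDF neurons.

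Ribosome biogenesis genes, which make and assemble the subunits, showed no common direction: of 21, 1 was higher and 1 lower in large PDF against ELAV neurons, 2 and 2 in small PDF against ELAV neurons, and 2 and 1 in small against large PDF neurons. Of all probe sets tested, 11.9% were higher and 12.5% lower in large PDF against ELAV neurons. The shares were 13.6% and 14.0% in small PDF against ELAV neurons, and 9.14% and 7.97% in small against large PDF neurons. Nop60B, the pseudouridine synthase gene, was higher in small PDF neurons by 1.18 ± 0.31 against ELAV neurons and by 1.26 ± 0.31 against large PDF neurons. Non1, a nucleolar GTPase gene, was lower by -1.03 ± 0.25 and -1.12 ± 0.25. Of 10 regulators of ribosomal protein transcription and translation, 5 were higher and 1 lower in small PDF against ELAV neurons. Against large PDF neurons 4 were higher and 0 lower. The list was chosen with earlier results of these data known, so these counts describe only the genes in it. REPTOR, a transcription factor gene downstream of TOR (2.21 ± 0.28 against ELAV neurons and 1.96 ± 0.28 against large PDF neurons), the S6 kinase gene S6k (1.23 ± 0.34 and 1.39 ± 0.34) and Dref, which binds the DNA replication-related element (1.04 ± 0.29 and 1.64 ± 0.29), were higher in both. foxo was lower than in ELAV neurons in small (-1.73 ± 0.47) and large (-1.56 ± 0.42) PDF neurons.

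For the mitochondrial ribosome the calls lay mostly in the lower direction. Of 69 mitochondrial ribosomal protein genes 2 were higher and 14 lower in large PDF than in ELAV neurons, with a median of -0.40, where 11.9% and 12.5% of all probe sets were, against 13 higher and 0 lower of 34 cytosolic members with a median of 0.52. In small PDF against ELAV neurons 0 were higher and 24 lower (median -0.68), where 13.6% and 14.0% of all probe sets were. In small against large PDF neurons 0 were higher and 9 lower (median -0.42), where 9.14% and 7.97% were. The largest of the named falls was that of mRpS21, by -3.56 ± 0.40 in small PDF against ELAV neurons (limma adjusted p = 3e-06). In large PDF neurons mRpL3 (-1.54 ± 0.31), mRpL21 (-2.10 ± 0.48), mRpL52 (-1.19 ± 0.26) and mRpS5 (-1.17 ± 0.26) were lower than in ELAV neurons. The difference between the 2 sets of genes was not itself tested. In per01 against wild-type large PDF neurons 11 of 23 initiation genes, 2 of 6 elongation genes, 7 of 21 biogenesis genes, 4 of 10 regulators and 7 of 69 mitochondrial genes were lower and 0 higher in the deposited values, where 31.0% of all probe sets were.

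Between ZT12 and ZT0 the related genes gave few calls. Of all probe sets 2.19% were called either way in wild-type large PDF neurons and 3.39% in small PDF neurons. In wild-type large PDF neurons mRpL24, 1 of 69 mitochondrial genes, was lower at ZT12 (-2.32 ± 0.51). In small PDF neurons mRpL10 (-2.46 ± 0.50), mRpL41 (-2.60 ± 0.56) and mRpS2 (-1.97 ± 0.49), 3 of the 69, were lower. There Mat89Ba, a ribosomal RNA processing gene and 1 of 21 biogenesis genes, was higher (2.98 ± 0.62, limma adjusted p = 0.0097).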

How the data were processed

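The deposited table holds log2 GCRMA values for 18952 probe sets on 24 Affymetrix arrays, and the submitters' processing notes name GCRMA and R 2.6 as the authors' tools. That method models background from probe sequence, equalizes array distributions and summarizes probes; the sets of arrays it was run on are not given in the sources. Per the labels' protocols, cRNA was made by repeated T7 amplification of sub-nanogram total RNA. The number of arrays limits the precision.

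Control probe sets (183) were removed, and 8318 probe sets with at least log2 5 on at least 2 arrays were fitted with limma 3.58.1 in R 4.3.3, 1 mean per group (10 groups, 14 residual and 3.62 prior degrees of freedom). Kind and genotype contrasts give both times, ZT0 and ZT12, equal weight. P values were adjusted by Benjamini-Hochberg over all 8318, and called means below 0.05. Higher and lower are used of called genes. Of the members tested, 14 are on probe sets ending in _s_at and 4 on _a_at, which can match several transcripts. All 41 members matched a RefSeq gene.

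All members may be named. Those listed by array are, in each comparison of kind or genotype, the 3 called members with the largest difference each way, stalk genes and paralogues at measurable levels, together with genes chosen after their values were seen (RpL39, RpL41, RpL15, RpS29). Of related lists up to 4 called genes are named by adjusted p. Members and lists were chosen with earlier results of these data known, as were the genes named -like as a class and the high-signal probe sets. The fit was tested on simulated data. Promoter motifs were not searched. Same-numbered replicates did not deviate together, so no pairing was used. Alternatives were other filters, requantiling, median centring, fitting only the groups compared, array weights, robust moderation along a variance trend, 1 probe set per gene, the replicate block and leaving out each array.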

Additional observations from a re-analysis of the deposited data

How the results depend on the processing

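In large PDF against ELAV neurons 9 to 19 members were called under the settings other than leaving out an array. The 9 came with only the groups compared, where 1744 of all probe sets were called. With array weights 19 members and 2191 of all probe sets were called, against 13 and 2030 in the main fit. Without 1 array 10 to 20 members were called, the most without ZT12 replicate 2 of large PDF neurons. Across every fit 9 of the 13 calls held. In small PDF against ELAV neurons the 5 calls became 9 with no filter, 3 with only the groups compared, 11 with a variance trend and robust moderation and 8 with array weights, and 2 to 6 without 1 array; RpL27 and RpLP1 held throughout. The 3 calls of small against large PDF neurons became 6 with no filter and 7 with the variance trend, and 2 to 6 without 1 array; RpL24-like and RpL34a held throughout. The 13 calls of per01 against wild-type large PDF neurons became 22 with no filter or the variance trend, 8 with only the groups compared, 0 requantiled and 0 median centred, and 7 to 22 without 1 array. Over all probe sets the calls of per01 against wild type went from 2659 to 6603 with no filter, where more probe sets were tested. They became 2782 with the variance trend, 2061 with only the groups compared, 587 requantiled and 719 centred. The median of the 34 members, -0.48, became -0.09 requantiled and 0.17 centred. Centring turned RpL24-like to 0.08, RpL27 to 0.10 and RpL37A to 0.09, and the cause was not tested. For small PDF against ELAV neurons 2295 of all probe sets were called in the main fit and 2324 with no filter. With only the groups compared 2120 were called, with the variance trend 2415 and with array weights 2302. For small against large PDF neurons 1423 were called in the main fit, 1340 with no filter and 1541 with the variance trend. With no filter or the variance trend 1 member was called between ZT18 and ZT6 and 1 over the 4 times. Of all probe sets 93 and 57 were then called between ZT18 and ZT6, and 334 and 277 over the 4 times. Without ZT12 replicate 2 of large PDF neurons the median difference in time change became -0.21 for per01 against wild type and 0.02 for large PDF against ELAV neurons, the ends of ranges that reached 0.26 and -0.40 without other arrays (0.09 and -0.31 with all). With the replicate number as a block 13, 5, 3 and 10 members were called for kind and genotype, in the order above. Of all probe sets 2007, 2112, 1304 and 2412 were called. Correlations of same-numbered deviations were -0.16 to 0.14. Signals near the top of the range may understate differences, and 2 or 3 arrays per group limit the time comparisons.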
